A study of Mus musculus with 8 samples.

Results

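Genes for hnRNP proteins and splicing factors were examined as RNAs recovered with DAZL from embryonic mouse gonads. They were taken as every non-control probe of the array whose gene name starts with Hnrp, Hnrnp, Sfrs, Srsf, Snrp or Sf3, which gave 121 probes of 57 genes among the 41101 probes used. Of these, 104 probes of 55 genes stood well above background on both arrays of 1 or more groups and were tested. The other 17 probes, which include the only probes of Hnrnpul2 and Sf3a2, were not. The rule uses gene names only, although these gene families were picked with earlier results of these data known. Genes are given under their current symbols, so that Sfrs10 of the array is Tra2b and the other Sfrs genes with a successor name carry it.

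DAZL is a germ cell protein that binds mRNAs, mainly in their 3′ untranslated regions, and influences how they are translated. The hnRNP proteins coat newly made transcripts and govern their splicing, export and stability, whereas SR proteins bind exons and recruit the splicing machinery. The snRNP proteins and the SF3 complexes are parts of the spliceosome itself, the particle that removes introns.

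Gonads of E14.5 mouse embryos, the stage counted in embryonic days, of the MCH strain background were lysed in lots of 50, as XX (female) or XY (male) gonads. RNA precipitated with an anti-DAZL antibody (IP) and RNA of the starting lysate (input, 5% of the material) were hybridised to 1-colour Agilent arrays, with 2 arrays for each of XX input, XX IP, XY input and XY IP. No transgene, knockout or drug distinguished the groups, and a precipitation with a control antibody was not analysed here. The labels number the arrays as replicates without saying whether they came from separate lots, so p-values measure the spread between these arrays, which may be technical. The 4 XX arrays lay on a slide of their own and the 4 XY arrays on another, so sex and slide cannot be told apart, while IP and input shared a slide. The gonads were used whole. Germ cell markers were well above background on both inputs for 6 of 8 genes in XX and 8 of 8 in XY. Their summed level, in multiples of the array's 75th percentile, was 106 to 117 in the XX inputs and 200 to 234 in the XY inputs. The inputs also held the somatic markers of each sex, with summed Sertoli cell markers at 27.6 to 32.1 in XY and 1.41 to 1.66 in XX, and 4 of 4 erythroid genes in both. Between IP and input the 9 tested germ cell probes had a median log2 difference of 2.17 in XX and 1.78 in XY. Of these, 5 and 4 were called higher by the rule given below. The medians in XX and XY were -1.90 and -1.63 for 9 erythroid probes and -2.71 and -1.49 for 2 endothelial ones. They were -0.23 and -0.84 for 5 Sertoli cell probes and 1.38 and -2.18 for 5 Leydig cell probes. For 2 granulosa precursor probes they were -2.52 and 0.28. In XX 1 Sertoli and 1 Leydig cell probe were called higher, and in XY 1 granulosa precursor probe. These probes, and both endothelial probes called lower in XX, had signals too close to background on 1 or both IP arrays. The part of this cell mixture in the results was not tested. In such bulk samples fewer cells of a type and less RNA per cell cannot be told apart.

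Levels are log2 processed signals after subtraction of the array's own 75th percentile, and the difference of the IP and input means is the log2 IP-minus-input difference. A probe was called in an IP comparison when its adjusted p from limma was under 0.05 and the difference was at least 4-fold, and in the comparisons between the sexes on the adjusted p alone. This zero is set by dim probes on the IP arrays. Their 75th percentile lay at 6.83 to 13.1 scanner units, below the lowest signal of any probe well above background on the same array (12.8 to 18.3), and on the inputs it lay at 77.4 to 173. Setting the zero at the array median moved the median of all tested probes from 0.09 to -1.92 in XX and from -0.03 to -1.90 in XY. The leading probe of each gene called higher is therefore also given by the share of all tested probes whose difference was lower, a rank that a constant per array does not change. Replicate arrays correlated at 0.963 to 0.996 over the 4206 probes detected on every array.

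In XX gonads 19 of the 104 tested probes, from 12 genes, were called higher in the IP and 4 probes of 4 genes were called lower. The members called higher made up 18.3%, beside 14.0% of all 18265 tested probes, and those called lower 3.85%, beside 9.91%. In XY gonads 15 probes of 10 genes were called higher and 2 probes of 2 genes lower, which is 14.4% beside 10.2% and 1.92% beside 7.68%. Of these, 13 probes were higher and 2 lower in both sexes. The median difference of the members was 0.18 in XX and 0.11 in XY, beside 0.09 and -0.03 over all tested probes. Members were detected more often than the array as a whole. Of the 104 members 66 were above background on all 4 arrays in each sex, beside 5567 and 5481 of 18265 tested probes. Of the higher calls, 1 of 19 members in XX and 2 of 15 in XY were not above background on both IP arrays. Over all tested probes these were 1069 of 2566 and 757 of 1861. The shares above are not matched for detection, so no excess of higher calls can be read from them. Among the probes that passed background on every array of a sex, the members' median was 0.77 in XX and 0.45 in XY, beside 0.77 and 0.33. The split of the calls depends on the zero. It was 1 higher and 47 lower in XX, and 0 higher and 44 lower in XY, with the zero at the array median (also 0 higher in XY at an unadjusted p under 0.05 in limma), 18 and 13 in XX and 10 and 4 in XY after quantile normalization, and 16 and 12 in XX and 9 and 3 in XY with the zero at the detected probes. The calls over all tested probes moved too. With the zero at the array median 47.3% of them were lower in XX and 45.9% in XY, beside 45.2% and 42.3% of the members. After quantile normalization 8.10% were higher and 18.0% lower in XX, beside 17.3% and 12.5% of the members, and 6.79% and 13.6% in XY, beside 9.62% and 3.85%. With the zero at the detected probes 9.15% were higher and 15.6% lower in XX, beside 15.4% and 11.5%, and 6.88% and 12.0% in XY, beside 8.65% and 2.88%. Normexp background correction left 10 higher and 2 lower in XX and 6 higher and 0 lower in XY (0 lower also at an unadjusted p under 0.05 in limma), and 9 of the 19 calls of a higher IP in XX and 9 of the 15 in XY, given below, were lost. Over all tested probes 2.76% were then higher in XX and 2.11% in XY, beside 9.62% and 5.77% of the members. Lower calls made up 2.57% of all tested probes in XX and 1.47% in XY, beside 1.92% and 0.00% of the members. Under it calls remained in both sexes for Srsf1, for Srsf2 with 2 probes, for Srsf7 with 3 probes in XX and 1 in XY, for Tra2b and for the first probe of Hnrnpf, and in XX for a probe each of Hnrnpll and Hnrnpa2b1. None of the 4 lower calls in XX remained, and the 2 made there were other probes, of Hnrnpa3 and Snrnp70.

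The calls were also counted within each of the 4 protein classes. SR and related genes had 10 of 33 tested probes called higher in XX and 8 of 33 in XY, with none lower, and the hnRNP genes had 7 of 40 higher and 2 lower in XX and 4 higher and 1 lower in XY. The snRNP genes had 0 of 20 higher and 2 lower in XX (0 higher also at an unadjusted p under 0.05 with the same fold), and 1 higher and 1 lower in XY, and the SF3 genes 2 of 11 higher in each sex. Their medians ran, in XX and XY, at 0.42 and 0.50 for SR genes, 0.47 and 0.19 for hnRNP genes, -0.30 and -0.06 for SF3 genes and -0.64 and -0.20 for snRNP genes. Beside the shares over all tested probes given above (14.0% higher in XX and 10.2% in XY), 30.3% and 24.2% of the SR probes were called higher and 17.5% and 10.0% of the hnRNP probes. The hnRNP shares lay close to those of all tested probes. For snRNP probes they were 0% and 5.00%, and the SF3 share, 18.2% in each sex, rests on 2 probes. Lower calls made up 5.00% and 2.50% of hnRNP and 10.0% and 5.00% of snRNP probes, beside 9.91% and 7.68% of all tested probes. Counted by gene, 5 of 16 SR genes and 5 of 19 hnRNP genes had a probe called higher in XX, and 4 and 3 in XY, since Srsf2 and Srsf7 with 4 and 3 probes made up most of the SR calls. No test between the classes was made. Of the 104 probes, 25 in XX and 17 in XY were above background on neither IP array. Their differences are printed as measured in the ranges below, but the IP side is only a bound.

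**Figure D1:**
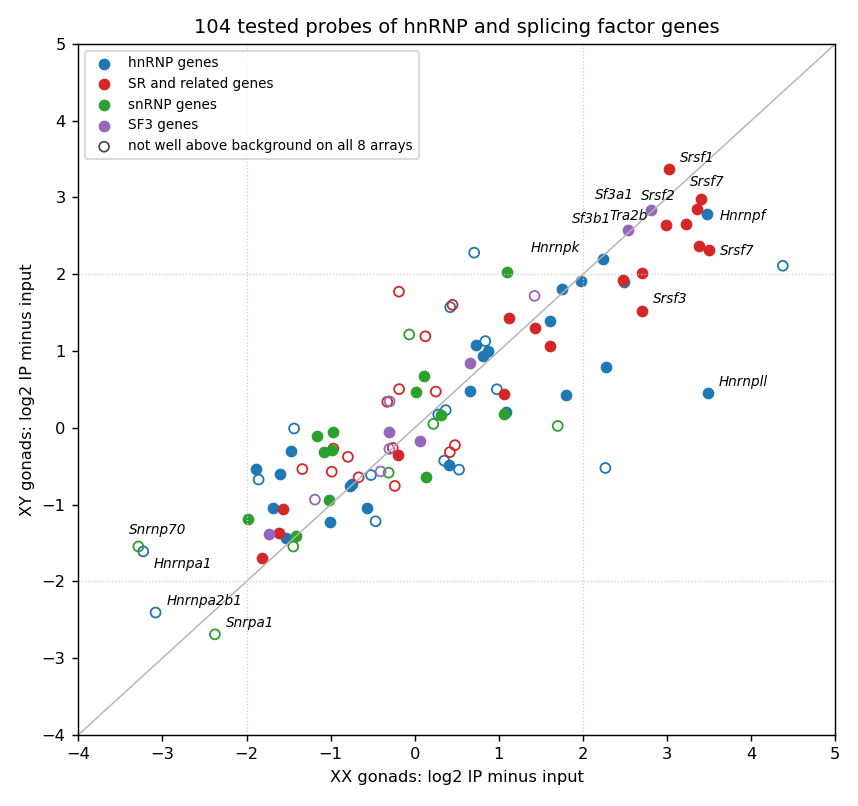
Log2 IP-minus-input difference in XX (horizontal axis) and XY gonads (vertical axis) for the 104 tested probes, 1 point a probe, coloured by protein class, with open points for the 43 probes that were not well above background on all 8 arrays. Dotted lines mark 4-fold; the labelled points of the SR genes Srsf1, Srsf2, Srsf7 and Tra2b lie beyond 4-fold in both sexes, and Hnrnpll lies far to the right of the line of equal values.

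Among the SR genes, Srsf7, whose protein is an SR factor with an additional zinc knuckle, was measured by 3 probes that were all called higher in both sexes. Its probe A_52_P649685 (chr17:80109686-80109745, mm8, minus strand) read 3.58 and 3.76 for the XX inputs and 6.82 and 7.52 for the XX IP, and 3.63 and 3.75 for the XY inputs and 5.66 and 6.37 for the XY IP. Both IP arrays of each sex lay above both inputs. The difference was 3.50 ± 0.43 (SE, n = 2 arrays a group, limma adjusted p = 0.000137) in XX, above 97.1% of tested probes, and 2.32 ± 0.43 (adjusted p = 0.00163) in XY, above 92.3%. The other probes gave 3.41 and 3.37 in XX and 2.98 and 2.37 in XY. All 3 lie within 395 bases of each other, and A_52_P649685 and A_52_P649683, 40 bases apart, share sequence.

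Srsf2, an SR protein of the nuclear speckles that promotes exon inclusion, had 4 probes, of which 4 were called higher in XX and 3 in XY. Its probe A_51_P262437 (chr11:116666198-116666251, minus strand) read 4.52 and 4.74 for the XX inputs against 7.67 and 8.32 for the XX IP, and 4.59 and 4.69 for the XY inputs against 7.29 and 7.71 for the XY IP. The IP and input arrays did not overlap in either sex. The difference was 3.36 ± 0.41 (limma adjusted p = 0.000133) in XX, above 96.5% of tested probes, and 2.85 ± 0.41 (adjusted p = 0.000378) in XY, above 95.5%. The other probes of Srsf2 gave 3.23, 2.70 and 2.48 in XX and 2.65, 2.02 and 1.92 in XY, the last just under 4-fold at an adjusted p of 0.00352.

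Srsf1, an SR protein that regulates alternative 5′ splice sites, was tested by a single probe, A_51_P485899 (chr11:87867243-87867302, plus strand). It read 4.08 and 4.19 for the XX inputs, 6.86 and 7.44 for the XX IP, 4.49 and 4.54 for the XY inputs and 7.74 and 8.03 for the XY IP, with no overlap. The difference was 3.02 ± 0.39 in XX (limma adjusted p = 0.000187), above 94.6% of tested probes. In XY it was 3.37 ± 0.39 (adjusted p = 0.000129), above 97.6% and the highest value of any member in that sex.

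Tra2b, an SR-like protein that binds purine-rich exonic enhancers, read 3.58 and 3.62 for the XX inputs and 6.39 and 6.78 for the XX IP with its probe A_51_P264322 (chr16:22161559-22161618, minus strand). On the XY arrays it read 3.63 and 3.87 for the inputs and 6.12 and 6.66 for the IP. The 2 kinds of array were apart in both sexes, with a difference of 2.99 ± 0.40 in XX (limma adjusted p = 0.000206) and 2.64 ± 0.40 in XY (adjusted p = 0.00053), above 94.3% of tested probes in each. Srsf3, the smallest SR protein, was called in XX only. Its probe A_51_P417016 read 0.55 and 0.86 for the XX inputs and 2.97 and 3.84 for the XX IP, and 1.06 and 1.32 against 2.33 and 3.10 in XY. The arrays were apart in both sexes, and the difference was 2.70 ± 0.45 in XX (limma adjusted p = 0.000633) and 1.53 ± 0.45 in XY (adjusted p = 0.0183, under 4-fold), above 92.3% and 84.2% of tested probes. The difference between the sexes was 1.17 ± 0.63, with an adjusted p of 0.399.

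The remaining SR genes gave smaller differences and no call. Srsf6, Srsf9 and Srsf11 had probes with adjusted p under 0.05 that stayed under 4-fold, at most 1.43 in XX and 1.77 in XY for Srsf6, 1.42 in XY for Srsf9 and 1.61 in XX for Srsf11. Srsf4 and Srsf5 ranged from -0.24 to 0.42 in XX and from -0.76 to 0.47 in XY. The related genes Srek1, Sugp2, Scaf4 and Sfswap ranged from -1.57 to 0.13 in XX and from -1.06 to 1.19 in XY, most of their probes not above background on all 4 arrays. The lowest SR-class values came from Clasrp, an SR-like protein that interacts with CLK kinases, at -1.82 ± 0.46 in XX and -1.69 ± 0.46 in XY, and from Scaf11 at -1.61 ± 0.39 and -1.37 ± 0.39. Both passed limma's adjusted p (0.00695 and 0.0125 for Clasrp, 0.00524 and 0.0151 for Scaf11) without reaching 4-fold.

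**Figure D2:**
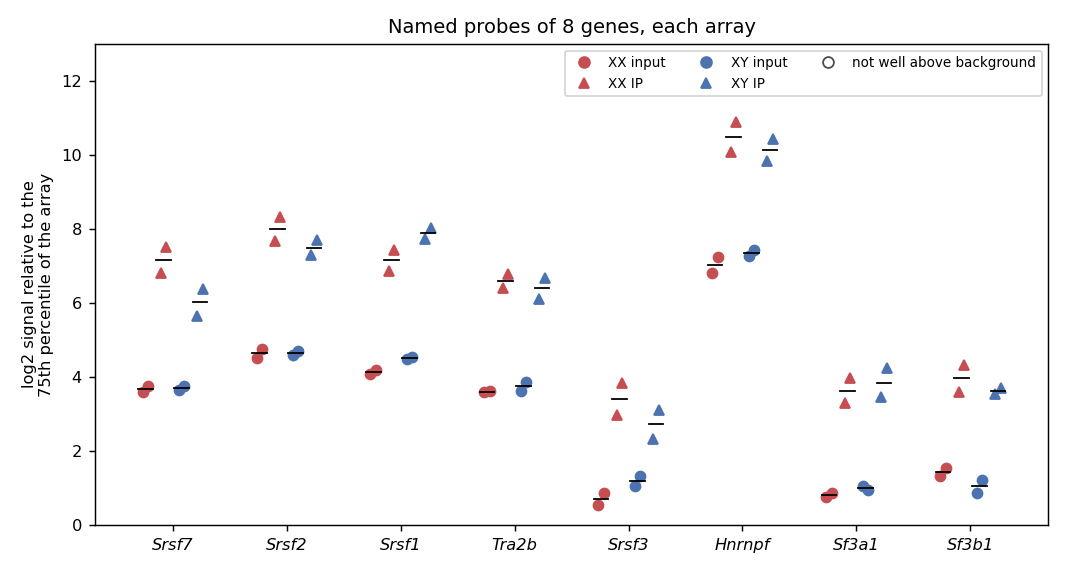
Log2 signal relative to the array's 75th percentile (vertical axis) on each of the 8 arrays for the named probes of 8 genes, circles for input, triangles for IP and a bar for the mean of 2 arrays. Both IP arrays lie above both inputs for each of the 8 probes in each sex, by a mean of 1.53 for Srsf3 in XY at the least and 3.50 for Srsf7 in XX at the most.

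Of the hnRNP genes, Hnrnpf, which binds G-rich sequences next to exons, was called higher in both sexes with its probe A_51_P305997 (chr6:117891108-117891167, plus strand). The probe read 6.80 and 7.24 for the XX inputs and 10.09 and 10.90 for the XX IP, and 7.26 and 7.43 against 9.83 and 10.42 in XY. The IP arrays lay above the inputs by 3.47 ± 0.43 in XX (limma adjusted p = 0.000154), more than 97.0% of tested probes, and by 2.78 ± 0.43 in XY (adjusted p = 0.000652), more than 95.1%. Its second probe, A_52_P141161, gave 4.38 ± 0.55 in XX and 2.11 ± 0.55 in XY and passed as well. It was above background on only 1 of 2 IP arrays in each sex and on 1 of 2 XX inputs, so its size is uncertain.

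Hnrnpk, a poly(C)-binding hnRNP, was called in both sexes by its probe A_52_P336859 (chr13:58400960-58401019, minus strand), with 5.68 and 5.93 for the XX inputs against 7.86 and 8.23 for the XX IP and 5.88 and 5.89 against 7.98 and 8.18 in XY. The arrays did not overlap, and the difference was 2.24 ± 0.38 in XX (limma adjusted p = 0.000752) and 2.20 ± 0.38 in XY (adjusted p = 0.00123), above 88.3% and 91.4% of tested probes. Its 2 other tested probes, the first of them not above background on any IP array, gave 0.84 and 0.82 in XX and 1.13 and 0.94 in XY, with no call. Hnrnpm, which binds GU-rich sequences, was called in XX alone. Its probe A_51_P170946 read 6.64 and 7.01 for the XX inputs and 8.85 and 9.34 for the XX IP, and 6.48 and 6.58 against 6.90 and 7.75 in XY. The IP arrays were the higher in both sexes, by 2.27 ± 0.43 (limma adjusted p = 0.00133) and by 0.79 ± 0.43 (adjusted p = 0.161), more than 88.6% and 70.6% of tested probes. The difference between the sexes was 1.49 ± 0.61 (adjusted p = 0.237). The XY call of Hnrnpr probe A_52_P451268 came from signals that were not well above background on any XY array, so no fold is given, although it is counted among the 15 XY calls and the 4 of the hnRNP genes. The other probe of Hnrnpr, A_51_P339276, above background on all 8 arrays, gave 1.80 ± 0.39 in XX (limma adjusted p = 0.00307), under 4-fold, and 0.43 ± 0.39 in XY.

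Hnrnpll, a splicing regulator related to hnRNP L and known from lymphocytes, was the member whose IP-minus-input difference was called different between the sexes. Its probe A_52_P672627 (chr17:79938278-79938337, minus strand) read 2.64 and 2.92 for the XX inputs and 5.97 and 6.56 for the XX IP. In XY it read 1.94 and 2.31 on the inputs and 1.91 and 3.23 on the IP arrays. The XX arrays were well apart, whereas in XY the IP arrays lay on either side of the inputs. The difference was 3.48 ± 0.48 in XX (limma adjusted p = 0.000244), above 97.0% of tested probes, and 0.45 ± 0.48 in XY (adjusted p = 0.484), above 62.5%. The difference of the 2 was 3.03 ± 0.68 (adjusted p = 0.0345), which made 1 member called of 104, beside 3.30% of all tested probes. This count depends on the processing, at 0 with the zero at the array median (6 at an unadjusted p under 0.05 in limma), 3 with it at the detected probes, 4 after quantile normalization and 12 under normexp. No share over all tested probes is given for these settings, so these counts are not a result about the members. A second probe, A_51_P390676, had 1.34 and 1.61 for the XX inputs and 3.39 and 4.09 for the XX IP, and 0.96 and 0.94 against -0.30 and 1.15 in XY, of which the lower XY IP value was not above background. It was called higher in XX as well (2.27 ± 0.50, limma adjusted p = 0.00327) and gave -0.52 ± 0.50 in XY, and its difference between the sexes, 2.79 ± 0.71, missed the threshold at an adjusted p of 0.0536. The inputs of the 2 sexes differed by 0.66 ± 0.48 and 0.52 ± 0.50 for these probes, neither called. With each array left out in turn the first probe differed between the sexes by 2.38 to 3.69, and it did not pass in 6 of 8 such fits, those without any single XX array or XY input array (limma adjusted p up to 0.13).

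Apart from Hnrnpa1 and Hnrnpa2b1, described further on, the hnRNP genes not yet named gave no call. Hnrnpdl, a relative of Hnrnpd, had a probe at 1.98 ± 0.42 in XX and 1.91 ± 0.42 in XY that passed the adjusted p (limma, 0.00257 and 0.00418) just under 4-fold, while its 3 other probes ranged from -0.52 to 0.65 in XX and from -0.62 to 1.57 in XY. Hnrnph2, of the same G-rich-sequence-binding family as Hnrnpf, gave 1.75 ± 0.39 in XX and 1.81 ± 0.39 in XY (limma adjusted p = 0.0037 and 0.00412), and its relatives Hnrnph1 and Hnrnph3 gave 1.08 and 0.41 in XX and 0.21 and -0.48 in XY, none of the 4 past the adjusted p. Hnrnpa3, a relative of Hnrnpa1, was lower in the XX IP at 4 of 4 probes, from -1.88 to -1.47, all at an adjusted p under 0.05 and 1 of them not above background for the XX IP, while in XY they ran from -1.04 to -0.30 and none passed. The difference between the sexes was not called for any of them. Hnrnpu, a protein of the nuclear scaffold, gave -1.53 and -0.77 in XX and -1.44 and -0.76 in XY. Its lower probe passed the adjusted p in each sex (limma, 0.00768 and 0.0131). Hnrnpl, Hnrnpc, Hnrnpd, Hnrnpa0 and Hnrnpul1 ranged from -0.57 to 0.98 in XX and from -1.05 to 1.08 in XY, and none passed.

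Across the members, XX and XY values ran together. Over the 104 tested probes, which share the 8 arrays, Pearson's r between the XX and the XY difference was 0.856 and Spearman's rho 0.859, and 91 probes (87.5%) had the same sign in both sexes. Over the 18265 tested probes r was 0.745, and 80.2% had the same sign. Over the probes detected on every array, r was 0.913 for the 61 members and 0.886 for all 4206. At an unadjusted p under 0.05, 9 members differed between the sexes, 8.65% beside 16.4% of all tested probes. A further probe with a large difference in the opposite direction was Srsf6 A_52_P543824, whose XX IP arrays read -0.14 and 0.71 against inputs of 0.38 and 0.57, and whose XY IP arrays read 2.54 and 2.78 against 0.91 and 0.85. It was named after its values were seen. Its difference between the sexes was -1.96 ± 0.59 (limma adjusted p = 0.0975), and the other probe of the gene gave 1.43 in XX and 1.30 in XY.

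The SF3 genes encode the proteins with which the U2 snRNP holds the branch point of an intron. Sf3a1, which joins the SF3a complex to U2, was called higher in both sexes with its probe A_52_P569178 (chr11:4082107-4082166, plus strand), which read 0.75 and 0.87 for the XX inputs and 3.29 and 3.96 for the XX IP, and 1.06 and 0.95 against 3.45 and 4.24 in XY. There was no overlap, and the difference was 2.81 ± 0.43 in XX (limma adjusted p = 0.000387) and 2.84 ± 0.43 in XY (adjusted p = 0.000536), above 93.2% and 95.4% of tested probes. Sf3b1, the largest SF3b subunit and the one that contacts the branch point, read 1.33 and 1.53 against 3.60 and 4.33 in XX and 0.87 and 1.21 against 3.54 and 3.70 in XY with its probe A_52_P625808 (chr1:54929924-54929983, minus strand). Again the arrays were apart, by 2.53 ± 0.41 in XX (limma adjusted p = 0.000533) and 2.58 ± 0.41 in XY (adjusted p = 0.000712), more than 91.0% and 94.0% of tested probes. A second Sf3b1 probe, not above background on 1 of 2 IP arrays of each sex, gave 1.42 and 1.72. Sf3b2, another SF3b subunit, had the lowest SF3 values, at -1.73 ± 0.39 in XX and -1.39 ± 0.39 in XY, which passed the adjusted p (0.00388 and 0.0152) without reaching 4-fold. Sf3a3 and Sf3b4 had values between -0.30 and 0.07 in both sexes. Of the 3 probes of Sf3b3, A_51_P492070 gave -0.30 in XX, with 1 of 2 IP arrays above background, and 0.34 in XY, and the others were not above background on any IP array. Sf3b5 gave -1.19 in XX (limma adjusted p = 0.0269) and -0.94 in XY.

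The snRNP genes covered the Sm core that all major spliceosomal snRNPs share and the proteins specific to U1 and U2. Among the Sm genes only Snrpe was called, in XY. Its probe A_51_P363634 read 4.48 and 4.52 for the XY inputs and 6.00 and 7.06 for the XY IP, and 4.36 and 4.59 against 5.12 and 6.02 in XX. The arrays were apart in both sexes, by 2.03 ± 0.47 in XY (limma adjusted p = 0.00571), just over 4-fold, and by 1.10 ± 0.47 in XX (adjusted p = 0.0718), more than 90.0% and 71.9% of tested probes. The difference between the sexes was -0.93 ± 0.67, with an adjusted p of 0.555. The other Sm genes Snrpb, Snrpd1, Snrpd2, Snrpd3, Snrpf and Snrpg ranged from -1.41 to 0.31 in XX and from -1.41 to 0.67 in XY, with Snrpd2 the lowest in both. Snrpn, an Sm protein gene that is imprinted and most active in brain, was not above background on any IP array. Snrpb2, a U2 protein, gave 1.70 and 1.06 in XX and 0.02 and 0.18 in XY with its 2 probes, and Snrpc and Snrpa, both of U1, gave no call.

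The members called lower in the IP were each not well above background on 1 or both of the IP arrays, so none met the rule for named falls, and they are named after their values were seen. Snrnp70, which encodes a protein specific to the U1 snRNP, was called lower in XX with its probe A_52_P501767. The probe read 3.37 and 3.27 for the XX inputs and 0.16 and -0.09, not above background, for the XX IP. The IP was at least 6.34-fold lower than the input (limma adjusted p = 0.000101). In XY the inputs read 0.90 and 1.02 and the IP arrays, below background, -0.55 and -0.62, a value at least 1.41-fold lower (adjusted p = 0.00721) that was not called. The other Snrnp70 probe, above background on all 8 arrays, gave -1.98 ± 0.45 in XX (limma adjusted p = 0.00393), just under 4-fold, and -1.19 ± 0.45 in XY. Snrpa1, a U2 protein gene with a single probe, read 2.42 and 2.32 against 0.26 and -0.27 in XX and 3.12 and 2.87 against 0.09 and 0.52 in XY. It was at least 3.29-fold lower in the XX IP (limma adjusted p = 0.000683), a bound that falls short of 4-fold, and differed by -2.69 ± 0.40 in XY (adjusted p = 0.00048), with 1 of 2 XY IP arrays above background. Hnrnpa1, an abundant shuttling hnRNP, had inputs of 3.37 and 3.40 and IP values of -0.93 and 1.25 in XX with its probe A_52_P232433, a difference of -3.23 ± 0.68 (limma adjusted p = 0.00262) with 1 of 2 IP arrays above background. Of its other 3 probes, A_51_P400784, above background on all XX arrays, gave -1.60 with no call, and the rest were not above background on any XX IP array.

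The inputs of the 2 sexes differed at 3 of 104 members, which is 2.88% beside 12.0% of all tested probes, all 3 higher in XX. The count depends on the fit, being lower when any single input array was left out and 28 when only the 4 input arrays were fitted. The 12.0% belongs to the main fit and no such share is given for the other fits. The 28 is therefore not a result about the members. Snrnp70 A_52_P501767 read 3.37 and 3.27 in the XX inputs and 0.90 and 1.02 in the XY inputs, a difference of 2.36 ± 0.38 (limma adjusted p = 0.00139) with no overlap. The other Snrnp70 probe differed by 0.76 ± 0.45 (adjusted p = 0.366). Hnrnpr A_52_P451268 and Srsf11 A_52_P684700 were above background on both XX inputs and on neither XY input, and were higher in XX by at least 1.66-fold and at least 2.40-fold (limma adjusted p = 0.0209 and 0.0305). Both passed the filter on dim probes only through the XX inputs, where they are high, and so had to differ. Neither was above background on any IP array. Their calls were lost in 10 and 12 of 18 alternatives, with a difference of 0 under a common floor. These comparisons run across slides.

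Several probes of a gene give a check that does not depend on the zero of the arrays, because the difference between 2 probes is taken within each array. Of the 57 genes, 38 had several probes on the array, and 30 had several tested. Pairs with both probes above background on all 4 arrays of the sex numbered 25 in 14 genes in XX and 25 in 12 genes in XY. The IP-minus-input difference of 2 probes of a gene differed by at least 4-fold, at an adjusted p under 0.05, in 4 pairs of 3 genes in XX and in 2 pairs of 1 gene in XY. Over all genes of the array 11.4% of 1064 pairs in XX and 9.01% of 888 pairs in XY were called. The members' pairs had a median absolute difference of 0.54 in XX and 0.63 in XY, beside 0.46 and 0.47 for all genes.

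**Figure D3:**
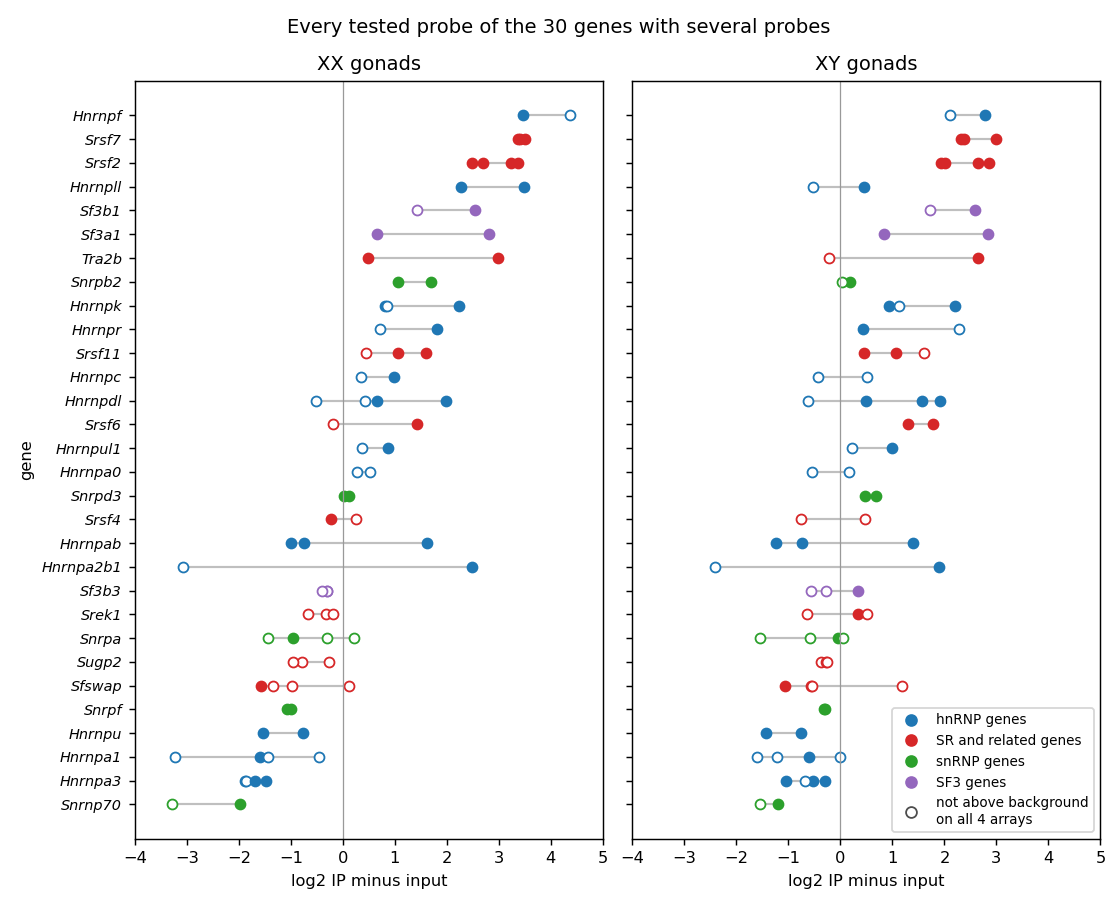
Log2 IP-minus-input difference (horizontal axis) in XX and XY gonads for every tested probe of the 30 genes with several tested probes (vertical axis, ordered by the XX mean), coloured by class, with open points for probes not above background on all 4 arrays of that sex. The probes of Srsf7 and Snrpf lie close together in XX, and those of Hnrnpa2b1 lie on opposite sides of 0. Those of Hnrnpab, Tra2b and Sf3a1 lie more than 4-fold apart in XX, as do those of Hnrnpdl and Hnrnpa1, there with open points.

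Hnrnpab, which encodes a nucleic-acid-binding hnRNP of the A/B type, held the called pairs of both sexes. Its probe A_52_P313080 (chr11:51443549-51443608, minus strand) read 4.70 and 4.84 for the XX inputs and 5.87 and 6.89 for the XX IP, and 4.80 and 4.82 against 5.59 and 6.81 in XY. Its probe A_52_P20966 (chr11:51444835-51444894), 1286 bases upstream, read 4.75 and 4.77 against 3.41 and 4.10 in XX and 5.44 and 5.34 against 3.84 and 4.49 in XY. At the zero used here the IP arrays were thus above the inputs with the first probe and below them with the second, in both sexes. The probes differed by 2.61 ± 0.22 in XX (limma adjusted p = 0.000263) and 2.63 ± 0.22 in XY (adjusted p = 0.00016). The third probe, A_51_P205953, lay 774 bases upstream of the first and differed from it by 2.36 ± 0.16 in XX and 2.13 ± 0.16 in XY, also called. All 3 carry the same transcript accession in the files, so a single summary value per gene would average opposite signs at the zero used here. The signs depend on that zero, although the difference between probes does not. With the zero at the array median the mean difference of the first probe would also be below 0 in both sexes.

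For Tra2b the probe A_51_P264322 exceeded A_52_P320822, 12764 bases upstream, by 2.51 ± 0.26 in XX (limma adjusted p = 0.000572). The upstream probe read 1.19 and 1.03 for the XX inputs and 1.22 and 1.96 for the XX IP, a difference of 0.48 ± 0.47 that was not called, beside 2.99 for the downstream probe. In XY the upstream probe was above background on 1 of 2 IP arrays, so the pair fell outside the test. With such dim probes admitted the Tra2b probes differed by 2.87 ± 0.33 in XY (limma adjusted p = 0.00345). For Sf3a1 the called probe exceeded A_51_P504442, 1774 bases upstream, by 2.16 ± 0.18 in XX (limma adjusted p = 0.000209) and, just short of 4-fold, by 1.99 ± 0.17 in XY (adjusted p = 0.000173). The upstream Sf3a1 probe gave 0.66 ± 0.46 in XX and 0.84 ± 0.46 in XY, with no call. In XX the IP arrays also lay above the inputs with both upstream probes, by less.

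Pairs of further genes passed the adjusted p at less than 4-fold, with probes of Hnrnpk apart by 1.43 in XX and 1.26 in XY, of Hnrnpdl by up to 1.33 and 1.43 and of Hnrnpll by 1.21 in XX. Smaller differences were found between the probes of some other genes, part of which also passed the adjusted p. These were 4 pairs of Srsf2 and 1 of Hnrnpu in each sex, and 2 of Srsf7 and 1 of Hnrnpa3 in XY. The 3 probes of Srsf7 differed by 0.03 to 0.13 in XX and by 0.05 to 0.66 in XY, and the 4 of Srsf2 by 0.13 to 0.88 in XX and by 0.10 to 0.93 in XY. The 2 probes of Snrpf, 5040 bases apart, differed by 0.08 in XX and 0.02 in XY, and those of Snrpd3, 2988 bases apart, by 0.10 and 0.21.

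Where probes of a gene differed in this test, the downstream one was usually the higher. At an adjusted p under 0.05 with no minimum fold, 12 of 12 pairs in 8 genes in XX had the larger IP-minus-input difference at the probe nearer the 3′ end, and 13 of 14 pairs in XY. The exception in XY was a pair of Hnrnpa3 probes 267 bases apart. Over all tested member pairs, whatever their p, the downstream probe was the higher in 19 of 25 (76.0%) in XX and 20 of 25 (80.0%) in XY, beside 65.0% and 65.3% for all genes. Over all genes of the array the count at an adjusted p under 0.05 was 262 of 363 pairs (72.2%) in XX and 233 of 349 (66.8%) in XY. Pairs of a gene share probes and are not independent. The distances are genomic, along the gene's strand, and can span introns. The input cRNA was made from 50 ng of RNA and the IP cRNA from 1 ng, with the same linear amplification kit, and the part of this difference in the position of the higher probe was not tested.

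**Figure D4:**
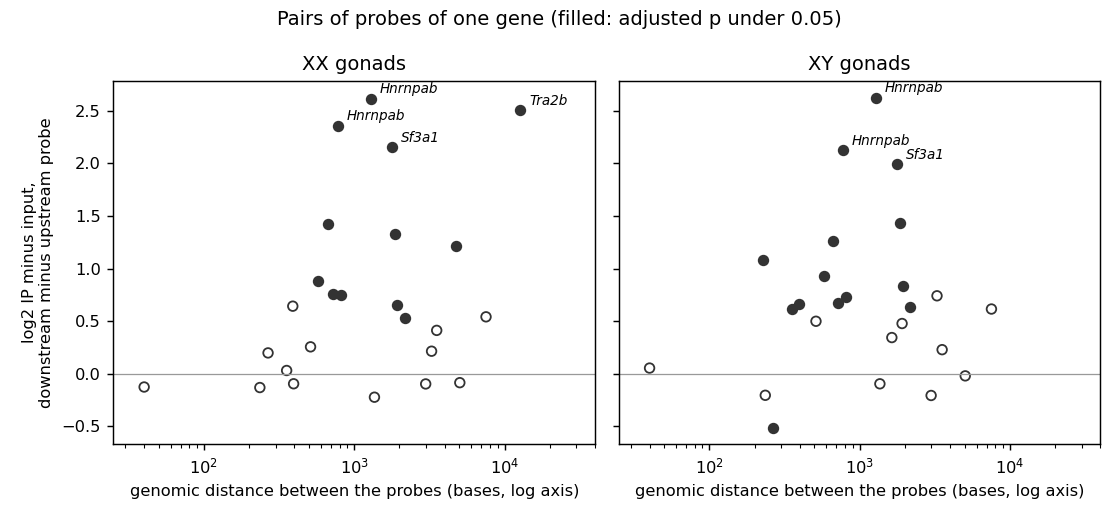
Difference in log2 IP-minus-input between the downstream and the upstream probe of a gene (vertical axis) against the genomic distance between them in bases (log horizontal axis), 25 pairs in XX and 25 in XY, filled where the adjusted p was under 0.05. All 12 filled points in XX and 13 of 14 in XY lie above 0, and the highest are the pairs of Hnrnpab, Tra2b and Sf3a1.

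Hnrnpa2b1, an abundant hnRNP that recognises UAG-containing motifs, ran against this order, but it fell outside the pair test because 1 of its 2 probes was below background in the IP. It was chosen after its values were seen. The upstream probe A_51_P419981 (chr6:51392376-51392436, minus strand) read 5.31 and 5.73 for the XX inputs and 7.75 and 8.27 for the XX IP, and 6.03 and 6.25 against 7.93 and 8.14 in XY. It was higher in the IP by 2.49 ± 0.40 in XX (limma adjusted p = 0.000516), which was called, and by 1.90 ± 0.40 in XY (adjusted p = 0.00344), more than 90.7% and 88.6% of tested probes. The downstream probe A_52_P636482 (chr6:51390921-51390980) read 3.23 and 3.15 for the XX inputs and -0.14 and 0.36 for the XX IP, where it was not above background, and 2.94 and 3.13 against 0.14 and 1.13 in XY. It was at least 5.65-fold lower in the XX IP (limma adjusted p = 0.000261) and lower by -2.41 ± 0.44 in XY (adjusted p = 0.00153), with 1 of 2 XY IP arrays above background. In both sexes, at the zero used here, the IP arrays lay above the inputs with 1 probe and below them with the other. The files pair the 2 probes with different transcript records, and which exons they lie in was not determined here. With such dim probes admitted to the pair test, probes of 2 more genes passed the adjusted p against the order. The upstream Sfswap probe A_52_P396974 exceeded A_51_P327963 by 2.26 in XY (limma adjusted p = 0.00519), with the higher probe above background on 1 of 2 IP arrays. In XX the same Sfswap pair differed by 1.70 (adjusted p = 0.0118). The upstream Srsf6 probe exceeded the other by 1.62 in XX (adjusted p = 0.00943), while in XY the downstream one was higher by 0.48 (adjusted p = 0.25). Pairs of all other genes past the adjusted p, the larger number in each sex, went with the order.

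**Figure D5:**
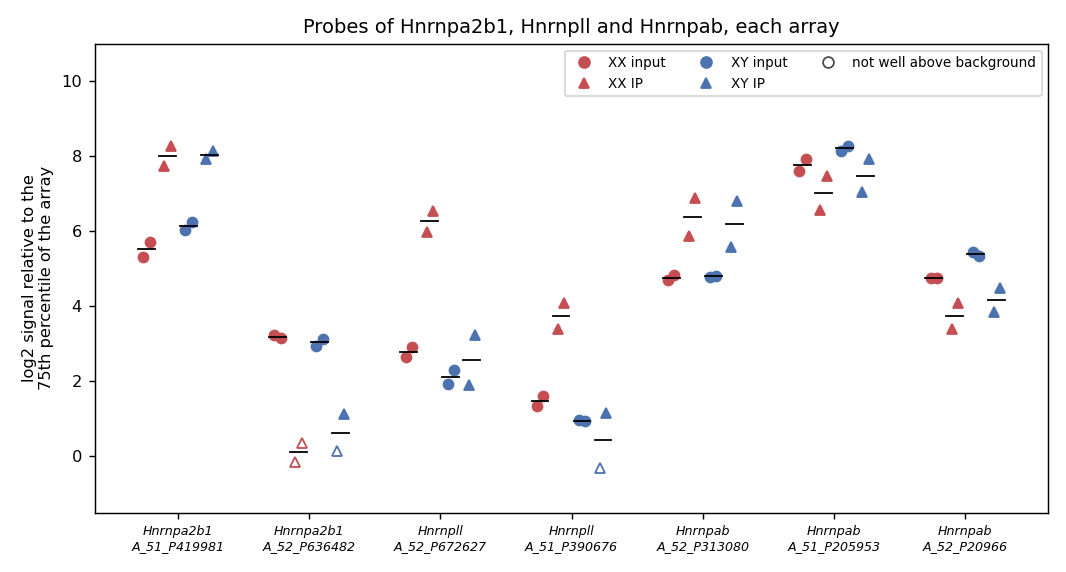
Log2 signal relative to the array's 75th percentile (vertical axis) on each array for the 2 tested probes of Hnrnpa2b1, the 2 of Hnrnpll and the 3 of Hnrnpab, circles for input, triangles for IP, open where not well above background and a bar for the mean. At this zero the Hnrnpa2b1 and Hnrnpab probes move in opposite directions from input to IP in both sexes, which for Hnrnpab depends on the zero. The Hnrnpll probes are higher in the IP in XX, while in XY input and IP overlap.

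Other genes of the splicing machinery, listed by name, had 133 probes of 73 genes tested. Of these 24 were called higher and 10 lower in each sex, 18.0% and 7.52% in each case, beside 14.0% and 9.91% of all tested probes in XX and 10.2% and 7.68% in XY, with 18 higher and 7 lower in both. Their median difference was 0.37 in XX and 0.01 in XY, beside 0.18 and 0.11 for the hnRNP, SR, snRNP and SF3 genes. Most of the lower calls, 9 of 10 in each sex, were not above background on both IP arrays. The following were named after their values were seen. Rbfox2, which binds a GCAUG element near regulated exons, had the highest values, at 4.41 in XX and 5.27 in XY for 1 probe and 2.52 and 3.50 for another. Bcas2, a part of the complex that activates the spliceosome, was called in both sexes by 3 probes at 3.38 to 3.66 in XX and 4.27 to 4.50 in XY. Lsm3 and Lsm6 belong to the protein ring on U6 snRNA. Lsm3 gave 4.16 in XX and 3.50 in XY, and the 4 tested probes of Lsm6 gave 1.83 to 3.13 in XX and 1.94 to 3.50 in XY, of which 3 were called in each sex. Tra2a, the paralogue of Tra2b, had 1 probe called higher in XX, at 2.06, and another called lower, at -2.03.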

How the data were processed

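RNA of 8 samples was labelled with Cy3 and hybridised to 1-colour Agilent arrays, and the authors extracted and deposited the signal intensity of every spot with Agilent Feature Extraction, version 9.5.3.1 per the file headers (9.5 in the submitters' processing notes). The deposited processed signals are background-subtracted intensities. Here control and outlier spots were left out, values under 1 were set to 1, spots of a probe were averaged, and log2 signals were scaled to each array's 75th percentile. The authors' deposited value table of log2 signals correlated with these values at 1.00 and was used as an alternative. The positions are those of mm8 in the files. Current symbols came from the RefSeq gene table of assembly GRCm38.p6, which named 121 of 121 probes.

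Probes well above background on both arrays of a group were kept (18265 of 41101), and limma 3.58.1 in R 4.3.3 was fitted to all 4 groups, with Benjamini-Hochberg adjustment over all kept probes and two-sided p-values. Pairs of probes with the same gene name were compared by the same fit to their within-array difference, over every gene of the array. The code was tested on simulated data. Up to 8 genes with the largest rise and fall per sex among called probes above background on all 4 arrays, the called sex and input differences and the called pairs were named. The members and lists were chosen with earlier results of these data known. Precision is limited by having 2 arrays a group. A probe below background on all arrays of a group gives a bound against the lowest signal well above background. Same-numbered input and IP arrays deviated together at r = 0.03 in XX and 0.14 in XY, and no label pairs them, so no block was used.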

Additional observations from a re-analysis of the deposited data

Results flagged for a closer look

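The IP-minus-input difference of Hnrnpll, measured by probe A_52_P672627, was larger in XX than in XY gonads by 3.03 ± 0.68 on the log2 scale (limma adjusted p = 0.0345), by a test of the difference itself. Both XX IP arrays (5.97 and 6.56) lay above the XX inputs (2.64 and 2.92), and the XY IP arrays (1.91 and 3.23) lay on either side of the XY inputs (1.94 and 2.31). The XX and XY arrays were on different slides, so sex and slide cannot be told apart. The value passed in 9 of 19 alternatives, over which it ran from 2.38 to 3.69. Besides the fits with an array left out, those it missed were the zero at the 50th percentile, the common floor, no filter on dim probes and unmoderated variances.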

How the results depend on the processing

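The counts below are of member probes called, in the order higher and lower in the XX IP, higher and lower in the XY IP (19, 4, 15 and 2 in the report), different between the sexes (1), different between the inputs (3), and pairs in XX and XY (4 and 2). Only counts that moved by over 1.5 times are given. For the sex difference, the inputs and the pairs no share over all tested probes is given under these settings. Those counts are therefore not a result about the members. With the zero at the 50th percentile the first 5 were 1, 47, 0, 44 and 0. With the zero at the detected probes XX lower was 12, XY higher 9 and the sex difference 3, and after quantile normalization XX lower was 13, XY lower 4 and the sex difference 4. With normexp correction the first 6 were 10, 2, 6, 0, 12 and 7, and in a form of it with outlying local backgrounds set to the array's median, which was chosen after seeing the data, XX higher was 9, XY higher 6, XY lower 0, the sex difference 10 and the inputs 6. A common floor left 1 input call. Without the filter on dim probes XX higher was 34 and XY higher 30 of 121 members, beside 23327 and 22372 of all 41101 probes. The sex difference was then 0, the inputs 1 and the pairs 20 and 18. With only probes above background on all 8 arrays XX lower and XY lower were 0 of 61 members, beside 373 and 231 of 4206 probes. The inputs were also 0. Fitting only the arrays of the comparison gave 28 input calls. Without moderated variances the first 5 were 0, with 19, 3, 13, 2 and 7 at an unadjusted p under 0.05, and the pairs 1 and 0 (2 at an unadjusted p under 0.05). With no fold minimum XX lower was 19, XY higher 29 and XY lower 10, beside 4170, 3691 and 3758 of all 18265 tested probes. With every kept probe paired the XY pairs were 7. Of the other counts of 0, those of the sex difference had 6 (50th percentile) and 5 (no filter) at an unadjusted p under 0.05, that of the inputs had 2, and the rest had 0.

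The replicate block gave 3 calls of a sex difference in place of 1 and changed no other count, 19, 4, 15 and 2 in the IP comparisons, and it cannot fit the input comparison. Leaving out each array in turn gave 19 to 24, 4 to 10, 13 to 19 and 1 to 5 probes in the IP comparisons, 0 to 5 for the sex difference, 1 to 3 for the inputs, and 4 to 4 and 2 to 3 pairs. XX lower was 10 without XX IP replicate 2, and XY lower was 5 without XY IP replicate 2 and 1 without XY IP replicate 1. The sex difference had 5 calls without XY IP replicate 2 and 0 without any single input array or XX IP replicate 1 (4 to 15 at an unadjusted p under 0.05). The inputs had 1 call without any single input array.

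No named value changed sign. Named probes kept their call in 333 fits and lost it in 76, and named pairs in 77 and 6. Every named IP-minus-input difference lost its call with the zero at the 50th percentile and without moderated variances. Those of Sf3a1 in both sexes, Srsf3 in XX and Sf3b1 and Hnrnpk in XY also lost it under normexp, and that of Hnrnpk in XY with the zero at the detected probes and after quantile normalization. The input differences of Hnrnpr and Srsf11 lost their call in 10 and 12 of 18 fits, being 0 under the common floor, and that of Snrnp70 in none. The called pair of Sf3a1 in XX lost its call under both forms of normexp and without moderated variances. The cause was not tested. The members called lower in the report each had 1 or both IP arrays below background, which limits the precision of those values, while the 2 lower under normexp in XX were above background on all 8 arrays.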
